A study of Mus musculus with 4 samples.

Results

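Slc16a11-positive progenitors are the Lineage-Sca-1+cKit+ (LSK) bone marrow cells in which at least 1 unique molecular identifier (UMI, the tag that marks a single captured mRNA molecule) of Slc16a11 (ENSMUSG00000040938) was counted. Among 25236 cells that carried a single hashtag, 2997 met this rule, 2263 of 16207 at homeostasis and 734 of 9029 after 5-fluorouracil (5-FU). Slc16a11 was chosen for its difference between the genotypes in these data, and the cells were chosen by their Slc16a11 UMI count. The level and share of this gene are thus given as a description and were not tested. LSK cells were sorted from C57BL/6 Sin3B F/F mice, called Sin3B+/+ or wild type here, and from Sin3B F/F; Vav1-iCre mice, called Sin3B-/- or knockout, in which Cre recombinase is made across blood cells. The homeostasis mice were male and untreated, and the stress mice received 100 mg/kg of 5-FU by intraperitoneal injection and were harvested 9 days later. All groups carried the floxed allele. Cells of 2 mice were pooled for each genotype and condition, the wild-type cells were stained with the B0096 hashtag and the knockout cells with B0157, and both genotypes of a condition shared 1 library. There was thus 1 pool per genotype and condition, and condition and library cannot be told apart.

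Slc16a11 encodes a member of the SLC16 family of membrane carriers, which includes the proton-coupled transporters of lactate and pyruvate. Some SLC16 carriers reach the cell surface together with a partner glycoprotein, basigin (Bsg) or embigin (Emb). LSK cells hold the long-term hematopoietic stem cells (LT-HSCs), which renew themselves and mostly rest, the short-term stem cells (ST-HSCs), and the multipotent progenitors MPP2, MPP3 and MPP4, which lean towards megakaryocyte and erythroid, myeloid and lymphoid fates. Sin3B is a scaffold protein of a histone deacetylase complex, and 5-FU kills dividing cells and thereby drives stem cells into repopulation.

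The targeted gene was low in the cells carrying the knockout hashtag, whether or not they held Slc16a11. At homeostasis Sin3b stood at 25.6 CPM, the usual scaling of a gene's UMIs by the total UMIs of its pool, in Slc16a11-positive knockout cells (95% Poisson interval 16.6 to 37.8) and at 23.1 in negative ones, beside 80.7 and 80.2 CPM in positive and negative wild-type cells. After 5-FU the values were 15.6 and 14.6 CPM in the knockout and 120.0 and 111.2 CPM in the wild type. Hashtag purity was lower at homeostasis, where 19.6% of positive and 16.1% of negative knockout cells had 80% or more of their hashtag UMIs from their own tag, against 66.4% and 57.6% in the wild type and 81.6% to 94.4% after 5-FU. The pools of positive cells held 22188796 and 9654497 gene UMIs in the wild type and 976862 and 1347505 in the knockout, at homeostasis and after 5-FU. The libraries shared 76 cell barcodes. The sorting antigens Kit and Ly6a (Sca-1) were present in positive wild-type cells, at 363.1 and 61.1 CPM at homeostasis and at 196.1 and 194.4 CPM after 5-FU. All intervals on counts and shares cover counting error alone.

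The share of Slc16a11-positive cells was compared between the genotypes within each library. At homeostasis, 2161 of 11579 wild-type cells were positive, which was 18.7% (95% Clopper-Pearson interval 18.0 to 19.4). In the knockout, 102 of 4628 cells were positive, or 2.20% (1.80 to 2.67). After 5-FU, 673 of 5302 wild-type cells were positive, or 12.7% (11.8 to 13.6), and 61 of 3727 knockout cells, or 1.64% (1.25 to 2.10). The intervals of the genotypes did not overlap in either library, but the gene had been chosen for this pattern, so the gap is a description. With 1 pool per genotype there was no replicate check within a condition.

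The difference was also present at equal depth. When every cell was thinned to 4000 UMIs, the positive share at homeostasis was 11.2% in the wild type (10.6 to 11.8) and 1.15% in the knockout (0.851 to 1.52). The thinned shares after 5-FU were 6.17% (5.50 to 6.91) and 0.551% (0.332 to 0.858). At homeostasis this step left out 835 wild-type cells beside 360 with the knockout tag, and after 5-FU 654 and 276. Summed over all cells, Slc16a11 stood at 34.3 CPM in the wild type (33.2 to 35.5) and 2.87 in the knockout (2.35 to 3.47) at homeostasis, 11.9-fold apart, a log2 ratio of -3.57 (-3.87 to -3.30). After 5-FU it stood at 21.3 (20.2 to 22.6) and 1.37 (1.08 to 1.72), 15.5-fold apart, a log2 ratio of -3.95 (-4.32 to -3.62).

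**Figure D1:**
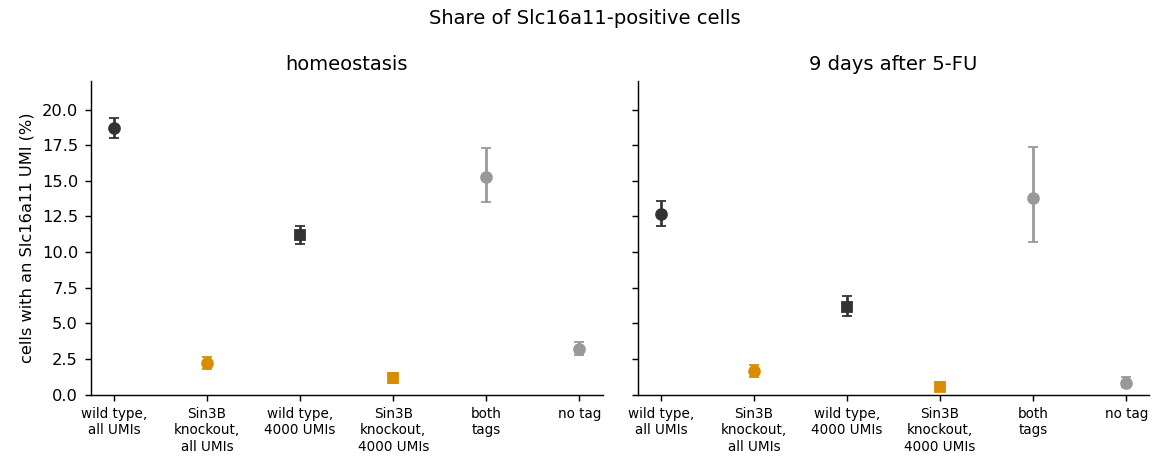
Percent of cells with an Slc16a11 UMI (vertical axis) at homeostasis (left) and 9 days after 5-FU (right), for hashtag singlets at full depth (circles) and thinned to 4000 UMIs (squares), and for barcodes carrying both tags or no tag (grey); bars are 95% Clopper-Pearson intervals. The wild-type shares of 18.7% and 12.7% sit far above the knockout shares of 2.20% and 1.64%.

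The positive cells of the genotypes also differed in how many Slc16a11 UMIs they held. In the wild type at homeostasis, 67.8% of positive cells had a single UMI, 19.3% had 2 and 12.9% had 3 or more, up to 15. In the knockout 98 of the 102 positive cells had a single UMI, 4 had 2 and 0 had more. After 5-FU, 59.4% of positive wild-type cells had 1 UMI, 21.4% had 2 and 19.2% had 3 or more, up to 11, while 53 of 61 knockout cells had 1, 5 had 2 and 3 had 3 or more, up to 4. Most members thus lie just inside the rule, and a cell with 0 UMIs lies just outside. Free RNA, read at homeostasis from barcodes with 1 to 100 UMIs, held Slc16a11 at 22 CPM (18.2 to 26.3), above the 2.87 CPM of the knockout cells and below the 34.3 CPM of the wild type, and its part in the single UMIs was not tested. Positive cells were also deeper than negative ones, with median UMIs of 8819 and 6710.5 in the wild type at homeostasis, 8789.5 and 6567.5 in the knockout, 12576 and 8878 in the wild type after 5-FU and 16549 and 11178.5 in the knockout.

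To place the positive cells along the LSK hierarchy, each cell thinned to 4000 UMIs was given to the published signature of these 5 subsets, with Slc16a11 left out, on which it scored highest. These classes are ranges of a score, and 20.7% of cells at homeostasis and 19.5% after 5-FU lay within 0.2 standard deviations of a second class. In the wild type the share was lowest in the LT-HSC class and highest in the ST-HSC class in both libraries. At homeostasis it was 2.92% (2.23 to 3.74) in the LT-HSC class, 16.4% (15 to 18.0) in the ST-HSC class, 10.5% (9.24 to 12.0) in MPP2, 11.7% (10.4 to 13.1) in MPP3 and 13.4% (11.9 to 14.9) in MPP4. The intervals of MPP2, MPP3 and MPP4 overlapped. After 5-FU it was 0.874% (0.352 to 1.79) in the LT-HSC class, 3.12% (2.01 to 4.60) in MPP2, 6.65% (5.16 to 8.42) in MPP3, 8.73% (6.97 to 10.8) in MPP4 and 9.33% (7.76 to 11.1) in the ST-HSC class, where the last 3 intervals overlapped.

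In the knockout no such order was seen, but the 5 classes together held 49 positive cells at homeostasis and 19 after 5-FU, so an order could have been missed. The knockout share lay between 0.965% and 1.29% over the 5 classes at homeostasis and between 0.183% and 1.01% after 5-FU, and all intervals within a library overlapped. Knockout cells of the ST-HSC class were positive in 8 of 636 at homeostasis, or 1.26% (0.545 to 2.46), and in 2 of 504 after 5-FU, or 0.397% (0.0481 to 1.43). The LT-HSC class, which held few positive cells in the wild type, was larger in the knockout, at 40.5% against 18.8% of cells at homeostasis and 32.5% against 17.2% after 5-FU. Of the 49 thinned knockout cells that were positive at homeostasis, 40.8% fell in the LT-HSC class, close to the 40.5% of all knockout cells there, whereas 4.92% of the 1200 positive wild-type cells did.

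**Figure D2:**
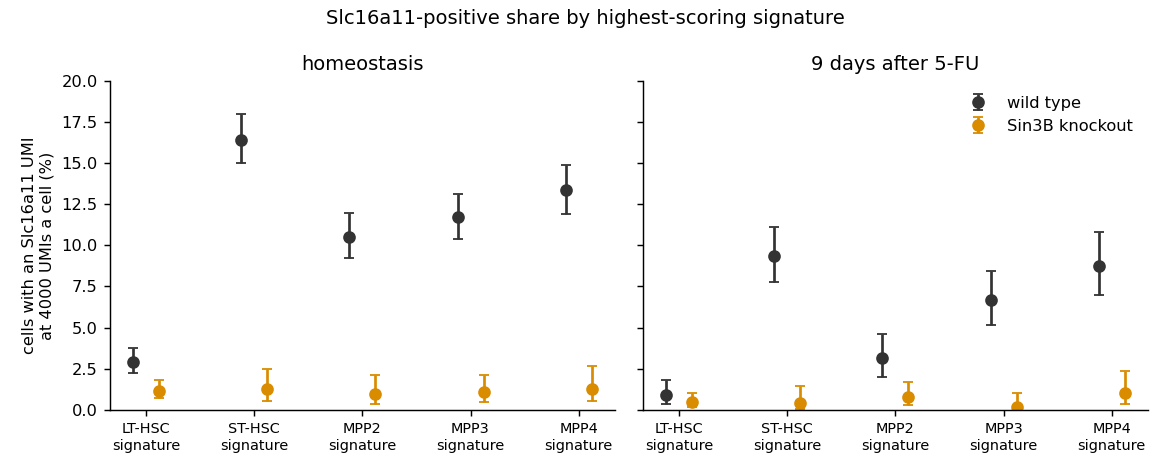
Percent of cells with an Slc16a11 UMI at 4000 UMIs a cell (vertical axis) in the 5 signature classes of wild-type (black) and Sin3B knockout cells (orange), at homeostasis (left) and after 5-FU (right), with 95% Clopper-Pearson intervals. Wild-type shares span 2.92% to 16.4% at homeostasis and 0.874% to 9.33% after 5-FU, while knockout shares stay at or below 1.29%.

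Slc16a11 lies on chromosome 11 beside a row of lectin genes, so its 8 nearest listed genes on each side, taken in the order of the GENCODE M21 annotation, were read in all cells of each genotype. Clec10a (ENSMUSG00000000318), which encodes a galactose-binding C-type lectin of dendritic cells and macrophages, is the next gene on the side of lower coordinates, and Asgr1 (ENSMUSG00000020884), which encodes a subunit of the asialoglycoprotein receptor, is the fourth. Both were lower in the knockout. Summed over wild-type cells, Clec10a had 1067 UMIs at homeostasis and 1306 after 5-FU, and over knockout cells 65 and 371. The knockout to wild-type log2 ratio of Clec10a was -2.62 (-3.01 to -2.27) at homeostasis and -1.71 (-1.88 to -1.54) after 5-FU, with adjusted p = 0.0291 by edgeR's quasi-likelihood test. Asgr1 was sparse, with 81 and 52 UMIs in the wild type and 3 in each knockout pool, log2 ratios of -3.13 (-5.65 to -1.75) and -3.80 (-6.33 to -2.38) and adjusted p = 0.0329 in edgeR. Asgr1 passed the filter on low counts through the wild-type pools, where it was higher, so its call rests on few knockout UMIs.

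Of the 16 neighbours, 13 passed the filter on low counts and 2, these same lectins, were called, beside 0.623% of the 15573 genes tested in this comparison (0.321% higher and 0.302% lower). Clec10a had been named beforehand as a marker from earlier results of the same data, so its call is not an independent hit in this count. The other 11 did not pass the test. Mgl2, a second galactose-binding lectin that lies next to Clec10a, had 42 and 38 UMIs in the wild type and 11 and 19 in the knockout, with log2 ratios of -0.48 (-1.63 to 0.46) and -0.87 (-1.77 to -0.06). Slc16a13, the adjoining gene of the same carrier family on the other side, had log2 ratios of -0.12 (-0.36 to 0.11) and -0.45 (-0.67 to -0.24). Rnasek stood at 0.38 (0.33 to 0.43) and 0.37 (0.32 to 0.42), adjusted p = 0.161 in edgeR. No annotated gene overlapped Slc16a11.

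The same lectins were higher in the positive cells. Within the wild type, Clec10a stood at 19.6 CPM in positive and 8.31 CPM in negative cells at homeostasis and at 46.6 and 17.6 CPM after 5-FU, log2 ratios of 1.24 (1.06 to 1.42) and 1.40 (1.23 to 1.57), adjusted p = 4.68e-05 in edgeR. A Clec10a UMI was present in 333 of the 2161 positive cells at homeostasis and in 209 of 673 after 5-FU. Asgr1 stood at 1.80 and 0.540 CPM at homeostasis and at 2.59 and 0.557 CPM after 5-FU, log2 ratios of 1.74 and 2.22, adjusted p = 0.0139 in edgeR. Of the 13 tested neighbours, 2 were called here too, Asgr1 and the marker named beforehand, Clec10a, beside 1.45% of the 14748 genes tested (0.285% higher and 1.17% lower). Slc16a13 differed by 0.09 (-0.20 to 0.36) and -0.07 (-0.47 to 0.29). Free RNA at homeostasis held Clec10a at 6.83 CPM and Asgr1 at 0.185 CPM, and of the other genes read there Cd48 at 80.1, Ccl9 at 63.1, Sin3b at 66.7 and Pf4 at 53.7 CPM. The values of Ccl9 and Pf4 lay above those of positive and negative wild-type cells. Those of Sin3b, Clec10a, Asgr1, Cd48 and Ccl9 lay above those of positive and negative knockout cells at homeostasis, and that of Pf4 below.

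**Figure D3:**
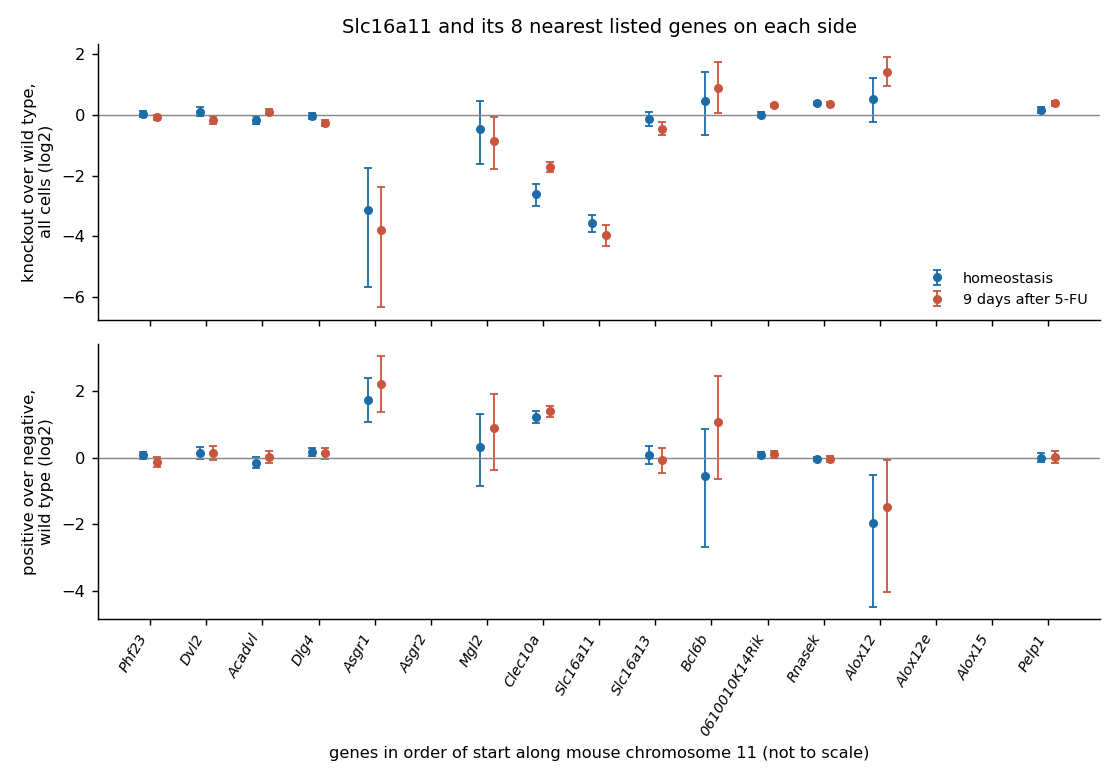
Log2 ratios (vertical axes) for Slc16a11 and its 8 nearest listed genes on each side, in order of start along chromosome 11, for knockout over wild-type cells (top) and for positive over negative wild-type cells (bottom, without Slc16a11, which defined the groups), at homeostasis (blue) and after 5-FU (red), with 95% counting intervals; genes with under 10 UMIs in a library have no point. Asgr1 and Clec10a lie below 0 in the top panel and above 0 in the bottom panel in both libraries.

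The wild-type positive cells were then compared with the Slc16a11-negative wild-type cells of the same library, on UMIs summed per pool, with library as a term in the fit. Of 14748 genes tested, 42 were higher and 172 lower in positive cells, 1.45% in all (0.285% higher and 1.17% lower). The fit had 4 pools and 1 residual degree of freedom, so the p-values measure how far the libraries repeat each other. Cd48, a SLAM-family antigen that is absent from the most primitive stem cells, was higher, at 134.4 against 100.6 CPM at homeostasis and 146.1 against 110.9 CPM after 5-FU, log2 ratios of 0.42 (0.36 to 0.48) and 0.40 (0.31 to 0.48), adjusted p = 0.00356 in edgeR. Ccl9, a chemokine of myeloid cells, was not called, at 43.5 against 38.6 CPM and 61.0 against 63.5 CPM, log2 ratios of 0.17 (0.07 to 0.28) and -0.06 (-0.19 to 0.07). Clec10a, Cd48 and Ccl9 had been named as markers of these cells from earlier results of the same data.

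Among the 15 called genes with the largest log2 difference were 3 receptors besides the lectins. Il18r1, a subunit of the interleukin-18 receptor, stood at 53.3 and 39.9 CPM in positive and negative cells at homeostasis and at 19.3 and 11.3 CPM after 5-FU. Vldlr, the very-low-density lipoprotein receptor, stood at 75.8 and 62.3 CPM and at 149.6 and 87.4 CPM. Ffar2, a receptor for short-chain fatty acids, stood at 29.4 and 22.7 CPM and at 77.3 and 53.9 CPM. Msrb3, a methionine sulfoxide reductase, stood at 27.9 and 17.8 CPM and at 8.39 and 4.08 CPM. The fitted log2 differences of these 4 genes lay between 0.47 for Ffar2 and 0.78 for Msrb3. Laptm4b, a lysosomal membrane protein, at 0.51, and Gm5111, at 0.48, completed this set.

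The remaining 7 of the 15 are genes of mitosis. Ect2, Cep55, Cenpf, Tpx2, Depdc1b, Spag5 and Ccnb2, which act in spindle assembly, chromosome segregation or cell division, had fitted log2 differences of 0.48 to 0.59. Their ratios were larger at homeostasis, 0.57 to 0.80, than after 5-FU, 0.16 to 0.35. Positive cells hold more UMIs, and when negative cells were drawn to match their depth these 7 fell to 0.07 to 0.31 and none was called, while Clec10a (1.20), Vldlr (0.63) and Laptm4b (0.54) stayed past the threshold. The differences of Asgr1 (1.48), Msrb3 (0.75), Gm5111 (0.59), Il18r1 (0.47), Ffar2 (0.34) and Cd48 (0.27) kept their sign but not the call under that matching.

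The genes with the lowest log2 difference in positive cells included erythroid, platelet and B cell genes. With depth matched, 17 genes named in this comparison kept their direction but lost the call, some of these lower genes among them. Of the other named genes, 9 kept their direction and side of the threshold and 1, Ccl9, turned. Car1, the carbonic anhydrase of erythroid progenitors, stood at 3.65 CPM in positive and 19.4 CPM in negative cells at homeostasis and at 0.621 and 8.74 CPM after 5-FU, a fitted log2 difference of -2.65 (adjusted p = 0.000101, edgeR). Cavin2, a caveolar protein found in platelets, stood at 3.02 and 11.3 CPM and at 7.04 and 43.1 CPM, and Rhag, the Rh-associated glycoprotein of red cells, at 0.721 and 3.00 CPM and at 0.621 and 3.96 CPM. Ebf1 and Pax5, transcription factors that set B cell identity, and Vpreb3 and Igll1, genes of B cell precursors, were lower by 2.25 to 2.63 on the log2 scale. Trbc1, a T cell receptor constant gene, had 7 UMIs in positive and 265 in negative cells at homeostasis and 0 and 66 after 5-FU. Chil3 and Amotl2 were lower by 2.59 and 2.42. At homeostasis Chil3 had 11 UMIs in positive and 98 in negative cells, Amotl2 5 and 84, and Pax5 4 and 64. After 5-FU these counts were 3 and 302, 3 and 95, and 6 and 152. Rhag had 6 and 192 there, and Car1 6 and 424. In that library Trbc1 and these genes passed the count filter through the larger negative pool. Their calls rest on few positive-cell UMIs there, and those of Trbc1, Chil3, Amotl2 and Pax5 on few in both libraries. Cells holding 2 or more UMIs of B cell, T and NK cell, neutrophil or immunoglobulin genes made up 953 of the 11579 wild-type cells at homeostasis and 554 of 5302 after 5-FU, and 21.2% and 15.3% of them were Slc16a11-positive, or 9.88% and 6.99% at 4000 UMIs beside 11.2% and 6.17% of all wild-type cells. With them left out, a step chosen after seeing the data, Car1 (-2.49), Cavin2 (-2.42) and Rhag (-2.36) stayed called. That step removes B cell UMIs by its own rule, so Ebf1, Pax5 and Igll1 were no longer tested and Vpreb3 turned to 0.46.

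**Figure D4:**
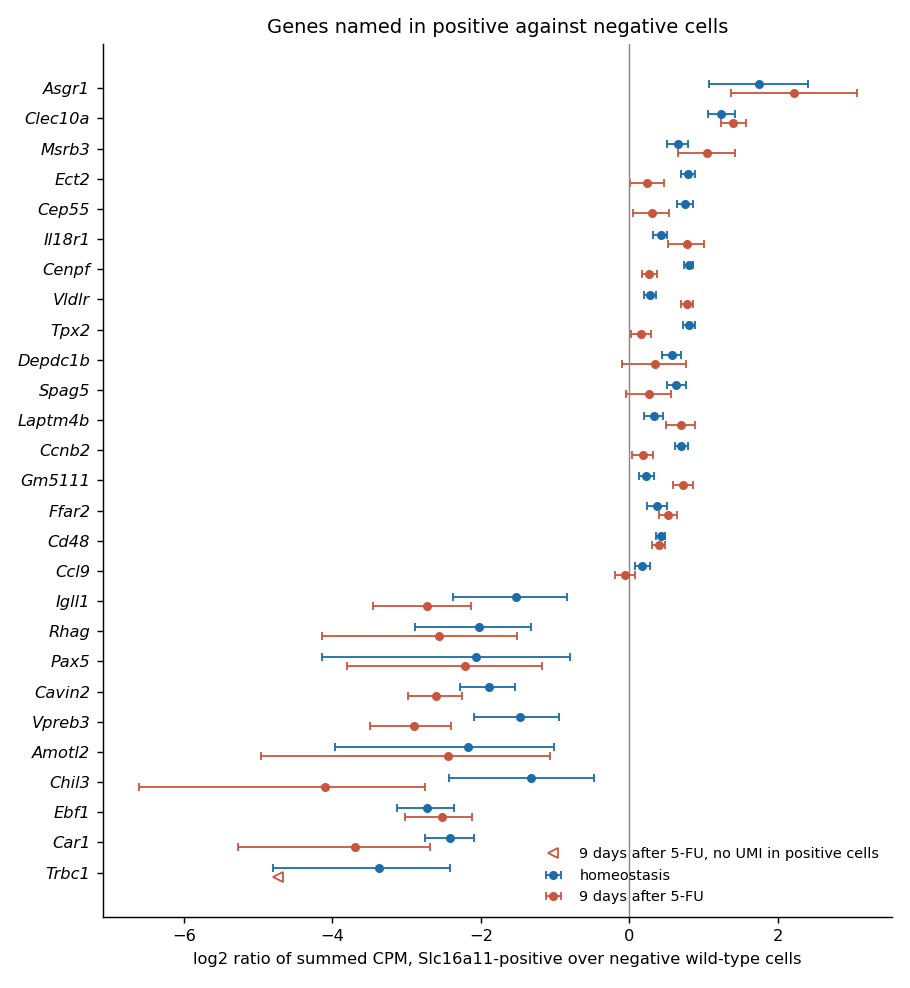
Log2 ratio of summed CPM (horizontal axis) in Slc16a11-positive over negative wild-type cells for the genes named in this comparison, at homeostasis (blue) and after 5-FU (red), with 95% counting intervals; the open triangle marks a gene with 0 UMIs in positive cells. Asgr1 and Clec10a lead on the right, and mitotic genes are further right at homeostasis than after 5-FU. The named erythroid (Car1, Rhag), platelet (Cavin2) and B cell genes lie to the left of 0 in both libraries.

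The gene lists were read by counts and medians, beside 1.45% of all genes called. All 8 tested members of the megakaryocyte and erythroid list were lower in positive cells, with a median log2 difference of -1.56 beside 0.00 over all genes tested. Pf4, platelet factor 4, stood at 15 against 40.3 CPM at homeostasis and 39.0 against 218.1 CPM after 5-FU, and Gata1, the erythroid transcription factor, at 4.15 against 9.55 and 6.32 against 23.9 CPM. With depth matched, 7 of 8 were called, with a median of -1.72, and without the lineage cells all 8 were.

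Several genes of LT-HSCs were lower in positive cells. Of 11 listed genes, 5 were lower and 0 higher, with a median of -0.26. Slamf1 (CD150), which marks LT-HSCs, stood at 3.38 against 6.63 CPM and at 14.4 against 31.9 CPM, and Tcf15 and Ctnnal1 were lower as well. Mecom and Hlf, stem cell transcription factors, did not pass, at fitted differences of -0.03 and 0.09. Of the 11 genes, 0 had ratios above 0 at homeostasis and 4 did after 5-FU. Procr, not called, had ratios of -0.48 (-0.61 to -0.35) at homeostasis and 0.29 (0.16 to 0.42) after 5-FU. Hlf had ratios of -0.09 (-0.12 to -0.06) and 0.25 (0.20 to 0.29), and the difference between the libraries was not tested. With depth matched, 2 of the 11 were called and the median was -0.13. In the published LT-HSC signature, 37 of 117 genes were lower and 0 higher, with 88 of the 117 below 0 in both libraries. In the ST-HSC signature, 12 of 116 were higher and 0 lower, H2afy, Flt3, Emb, Cd53, Vldlr and Slco3a1 among them, and in the MPP4 signature 5 of 90 were higher and 0 lower. In the MPP2 signature 1 of 74 was higher and 9 lower, and in the MPP3 signature 0 of 86 were higher and 4 lower. With depth matched the calls were 19 lower for LT-HSC, 9 higher for ST-HSC, 3 higher for MPP4, 8 lower for MPP2 and 0 for MPP3.

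Of the 10 sorting antigens, 3 were higher, 1 lower and 6 not called, and with depth matched 1 was higher and 1 lower. Flt3, the receptor that marks lymphoid-primed progenitors, stood at 444.5 against 364.3 CPM at homeostasis and at 106.3 against 77.9 CPM after 5-FU, Cd244a and Cd48 were the others higher, and Slamf1 was lower. Of 10 lymphoid-primed genes tested, Flt3 and Dntt were higher and Ccr9, a homing receptor for the thymus and gut, was lower, with 2 higher and 0 lower in DESeq2 and 3 higher and 0 lower with depth matched. The list median was 0.21 at homeostasis, with 6 of 10 ratios above 0, and -0.07 after 5-FU, with 5 of 10. Il7r, not called, had ratios of -0.43 (-0.73 to -0.15) and -2.29 (-3.32 to -1.52), the latter on 12 UMIs in positive cells. Dntt, the polymerase that adds bases at antigen receptor joints, stood at 200.1 against 154.6 CPM and at 77.0 against 54.9 CPM. Of 11 myeloid genes, Ms4a3 was lower and 10 were not called, with 0 called in DESeq2 or with the own tag at 80% or more and 5 lower where positive cells needed 2 or more Slc16a11 UMIs. Their median was 0.03 at homeostasis and -1.33 after 5-FU, with Mpo at 0.20 and -1.52, and the difference between the libraries was not tested.

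Among the carriers related to Slc16a11, 1 call was made. Of 12 tested genes of the monocarboxylate transporter list, 11 were not called, among them Slc16a1, the widespread lactate carrier, at a fitted log2 difference of 0.08, and Bsg at 0.01. The called gene was Emb, embigin, a partner of SLC16 carriers, at 0.32 (adjusted p = 0.0410, edgeR), and 0 of the 12 were called with DESeq2, with depth matched or with the own tag at 80% or more of hashtag UMIs. In edgeR 0 of 7 genes of lactate and pyruvate use were called (0 at an unadjusted p under 0.05, and 0 adjusted in DESeq2), with a median of 0.06 and Ldha at -0.09.

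Genes of the cell cycle were read next. All 20 genes of G2 and M phase had ratios above 0 at homeostasis, with a median of 0.66, and 15 of 20 after 5-FU, with a median of 0.04. Over both libraries 3 of the 20 passed the test, and the difference between the libraries was not tested. The 24 S phase genes had medians of 0.13 and -0.05 with 0 called in edgeR (1 at an unadjusted p under 0.05) and 0 in DESeq2. With depth matched, 0 of the 20 G2 and M genes were called and their median was 0.02, and without the lineage cells all 20 were, with a median of 0.54. The interferon, p53 and CC chemokine lists had 0 called genes each in edgeR and in DESeq2 (5 of 12, 0 of 10 and 3 of 9 at an unadjusted p under 0.05 in edgeR), and Egr1 was the lone call, lower, among 12 immediate early genes.

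Markers of mature cells were read for cells that the sort could have let through. The B cell list summed to 30.3 CPM in positive and 53.3 CPM in negative wild-type cells at homeostasis and to 46.8 and 114.6 CPM after 5-FU, with 5 of 7 tested genes lower, 2 of 6 with depth matched. The dendritic cell and macrophage list, which holds cells known for Clec10a, summed to 118.7 and 168.7 CPM and to 133.0 and 183.5 CPM, lower in positive cells, with Cd74, H2-Aa and H2-Eb1 called lower and 0 higher of 8, and with depth matched 0 of 7 were called and the median went from -0.56 to -0.04. The T, NK and innate lymphoid list summed to 16.6 and 24.0 CPM and to 26.1 and 28.8 CPM with 0 of 4 called in edgeR or DESeq2 (2 at an unadjusted p under 0.05), and the mature erythroid list to 44.7 and 69.7 CPM and to 135.2 and 43.7 CPM with 0 of 3 (3). Hbb-bt, a globin gene of the mature erythroid list, had log2 ratios of -0.50 (-0.68 to -0.32) at homeostasis and 1.71 (1.60 to 1.81) after 5-FU. It was not called in edgeR, and 1 of 3 genes of that list was called higher where positive cells needed 2 or more Slc16a11 UMIs. In the mast cell and basophil list 1 of 5, Cpa3, was lower, with 0 called in DESeq2. The neutrophil list summed to 116.5 and 53.3 CPM at homeostasis and to 3.94 and 124.0 CPM after 5-FU with 0 of 6 called in edgeR or DESeq2 (1 at an unadjusted p under 0.05) and 5 of 6 lower, at a median of -3.02, where positive cells needed 2 or more Slc16a11 UMIs, and 964 of the 1087 S100a8 UMIs of the positive cells at homeostasis sat in 1 cell, which also held 916 of 1001 of S100a9, 178 of 187 of Ngp, 108 of 141 of Camp, 70 of 70 of Ltf and 66 of 73 of Lcn2. Cd3e, which defines T cells, and Cma1 of mast cells had 0 UMIs in positive wild-type cells. The part of these cells in the differences above was not tested.

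**Figure D5:**
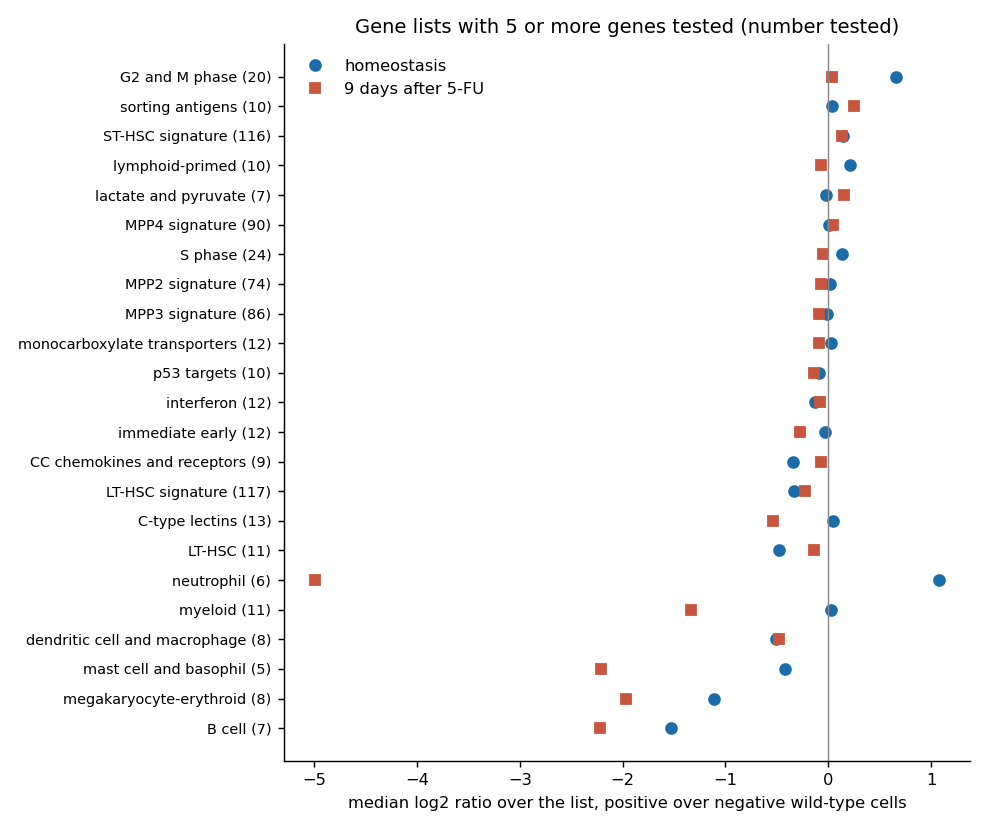
Median log2 ratio over each gene list (horizontal axis) in Slc16a11-positive over negative wild-type cells at homeostasis (blue circles) and after 5-FU (red squares), with the number of genes tested in brackets. The megakaryocyte-erythroid and B cell lists lie left of -1 in both libraries, G2 and M phase lies at 0.66 at homeostasis and 0.04 after 5-FU, and at the neutrophil point for homeostasis 1 cell held 964 of the 1087 S100a8 UMIs.

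Few genes followed Slc16a11 from cell to cell. Over wild-type cells, on log-normalised values of 12489 genes, the genes among the 10 most alike in a library and the 30 most alike in the other were H2afy, which encodes the histone variant macroH2A1 (Pearson r 0.18 at homeostasis and 0.17 after 5-FU), Clec10a (0.14 and 0.16), Flt3 (0.14 and 0.11) and Adgrl4, an adhesion receptor (0.12 and 0.15). The cells of a library share depth and preparation, and coefficients of this size in sparse counts are a description.

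The state of the positive cells was then compared between genotypes. Positive knockout cells were few, 102 and 61, so sparse genes could not be tested. Of 12227 genes, 24 were higher and 16 lower in knockout than in wild-type positive cells, 0.327% in all (0.196% higher and 0.131% lower). Sin3b was lower by 2.29 on the log2 scale (adjusted p = 2.34e-07, edgeR). With wild-type cells drawn down to the same cell numbers, 5 were higher and 1 lower of 9513 tested, and the DESeq2 Wald test called 6 and 1.

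Metallothionein genes and several genes listed for megakaryocytes or LT-HSCs were higher in positive knockout cells. Mt1 and Mt2, metal-binding metallothioneins, stood at 71.7 and 14.3 CPM in knockout and at 15.7 and 1.31 CPM in wild-type positive cells at homeostasis, and at 119.5 and 7.42 against 19.2 and 0.518 CPM after 5-FU. Their fitted log2 differences were 2.45 (adjusted p = 2.15e-10) and 3.57 (adjusted p = 0.000387) in edgeR. Nupr1, a stress-induced nuclear protein, stood at 49.1 against 5.63 and at 37.1 against 11.3 CPM, and Cavin2 at 34.8 against 3.02 and at 30.4 against 7.04 CPM. Vwf (von Willebrand factor), Jam2 (a junctional adhesion molecule) and Tinagl1 were higher by 2.27 to 2.29 on the log2 scale. Of the 8 named higher genes, Mt1, Cavin2 and Nupr1 were called both in DESeq2 and with wild-type cells drawn down, Mt2 in DESeq2 and Pf4 in the drawn-down fit, and Vwf, Jam2 and Tinagl1 in neither. Pf4 stood at 232.4 against 15 CPM at homeostasis and 70.5 against 39.0 CPM after 5-FU, but 135 of its 227 UMIs in the knockout at homeostasis came from 1 cell, and 41 of 95 after 5-FU from another. Without those cells, a step chosen after seeing the data, the log2 ratios of Pf4 to the wild type were 2.70 and 0.06. Cells were removed from the knockout alone in this step. In the wild type after 5-FU 1 positive cell held 93 of the 377 Pf4 UMIs and was kept, so the 0.06 is a 1-sided value. Of the 12 Jam2 UMIs in the knockout after 5-FU, 8 came from 1 cell, and without that cell the ratio of Jam2 there went from 2.20 to 0.74. Those of Vwf and Tinagl1 after 5-FU stayed at 1.28 and 1.69 without their highest cell.

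Lower in positive knockout cells were Clec2i, a C-type lectin, Lamc1 (a laminin chain), Msrb3, Ccser1, Il18r1, Ldlrad4 and Auts2, by 1.41 to 3.07 on the log2 scale. DESeq2 called 0 of these 7, and of the 3 that could be tested with wild-type cells drawn down, Il18r1, Ldlrad4 and Auts2, 0 were called. Il18r1 had 27 UMIs in knockout and 1182 in wild-type positive cells at homeostasis and 3 and 186 after 5-FU, a fitted log2 difference of -1.48 (adjusted p = 0.0185, edgeR). Clec2i had 3 and 477 UMIs at homeostasis and 0 and 27 after 5-FU, Lamc1 4 and 508 and 1 and 70, and Msrb3 6 and 620 and 2 and 81. After 5-FU the knockout UMIs were 8 for Ldlrad4, 3 for Auts2 and 1 for Ccser1. In that library all 7 genes passed the count filter through the larger wild-type pool. Their calls thus rest on few knockout UMIs there, and those of Clec2i, Lamc1 and Msrb3 on few in both libraries. After 5-FU the intervals of Ccser1 (-0.33, -6.27 to 1.88) and Ldlrad4 (-0.62, -1.95 to 0.34) took in 0. In all knockout against all wild-type cells, the 8 named genes higher in positive knockout cells were also called higher, Mt1 at 2.15 and Nupr1 at 1.48 among them. Of the 7 named lower genes, 4 were called lower there too, Msrb3 (-1.49), Il18r1 (-1.65), Ldlrad4 (-1.08) and Auts2 (-1.93). Clec2i (-0.94), Lamc1 (-1.44) and Ccser1 (-1.03) were below 0 there as well but did not pass the test. Over all 15573 genes tested there, 0.321% were called higher and 0.302% lower. The positive cells are part of the all-cell pools, so these comparisons share cells and are not independent. Among the lists, Dntt was lower (-1.20) and the other 7 tested lymphoid-primed genes were not called, and Pf4 and Vwf were higher and 5 megakaryocyte-erythroid genes not called. DESeq2 called 0 genes of both lists, and the fit with wild-type cells drawn down called 0 of 5 and 1 of 4. In the same comparison 0 of 11 LT-HSC genes, 24 S phase genes and 20 G2 and M genes were called in edgeR or DESeq2 (5, 3 and 3 at an unadjusted p under 0.05 in edgeR). In the LT-HSC signature 8 of 116 were higher and 0 lower, and in the ST-HSC signature 2 of 116, Wfdc17 and Vldlr, were lower. DESeq2 called 3 and 0 of these signatures, and the drawn-down fit 2 of 105 and 0 of 115. Among the C-type lectins Clec12a was higher and Clec2i lower, with 0 called in DESeq2 or the drawn-down fit. In the neutrophil list S100a8 (-2.97) and S100a9 (-3.06) were lower, with 0 called in DESeq2. Their ratios were -3.41 and -3.66 at homeostasis and 0.03 (-3.40 to 1.83) and 0.91 (-2.58 to 2.94) after 5-FU, and 1 wild-type cell held 964 of the 1087 S100a8 and 916 of the 1001 S100a9 UMIs at homeostasis.

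Within the knockout, positive cells were set against knockout cells without an Slc16a11 UMI, which uses none of the wild-type pools. Clec10a stood at 5.12 against 1.67 CPM at homeostasis, on 5 UMIs, a log2 ratio of 1.74 (-0.06 to 2.92), and at 31.2 against 6.25 CPM after 5-FU, on 42 UMIs in 16 cells, a ratio of 2.33 (1.82 to 2.79). Cd48 had ratios of 0.02 (-0.41 to 0.39) and 0.88 (0.67 to 1.07), and Il18r1 of 0.68 (0.05 to 1.21) and -0.13 (-2.64 to 1.23). Ratios over the genes called in the wild type were read where the level in negative knockout cells alone would give at least 5 UMIs in the positive pool, a limit chosen after seeing the data. Of the 42 genes higher in positive wild-type cells, 29 of 39 such genes had ratios above 0 at homeostasis, with a median of 0.18, beside 57.2% and 0.04 over all genes. After 5-FU it was 36 of 38, with a median of 0.40, beside 46.0% and -0.03. Of the 172 genes lower in positive wild-type cells, 75 of 139 such genes had ratios above 0 at homeostasis, with a median of 0.03, and 0 of 137 did after 5-FU, with a median of -0.92. The difference between the libraries was not tested.

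To group cells without asking for an Slc16a11 UMI in each, a score was built from the 50 genes with the highest positive over negative ratio in the other library, without Slc16a11 and its neighbours. Slc16a11 thus still set the gene lists, and through the positive wild-type cells the minimum score. The lists from the 2 libraries shared 0 genes, and the list from homeostasis, used after 5-FU, held S100a8, S100a9, Lcn2 and Ngp, whose UMIs in positive cells lay mostly in 1 cell. The score separated the wild-type cells weakly, with medians of 3.25 UMIs per 10000 in positive and 2.70 in negative cells at homeostasis and of 1.66 and 1.44 after 5-FU. Cells at or above the median of the positive wild-type cells made up 45.1% of wild-type cells (44.2 to 46.0) beside 36.6% in the knockout (35.2 to 38.0) at homeostasis, and 46.5% (45.1 to 47.8) and 47.4% (45.8 to 49.0) after 5-FU. At homeostasis 20.7% of such cells in the wild type and 2.42% in the knockout held an Slc16a11 UMI. After 5-FU the shares were 13.7% and 2.21%. The log2 ratio of its level between genotypes was -3.56 (-4.04 to -3.14) and -3.73 (-4.19 to -3.32) in them and -3.51 (-3.91 to -3.16) and -4.23 (-4.90 to -3.69) in the cells below. A split this weak says little about the ratio on its sides, and these values are a description.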

How the data were processed

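LSK cells were profiled with the 10x Genomics 3′ v3 kit, which marks strand, and hashtag antibodies. The deposited matrices hold UMI counts per gene and barcode, which the authors made with Cell Ranger (versions 4 and 6.0.1 per the file headers, genome build mm9 per the labels) and did not normalise. Fold changes and intervals were computed here. The homeostasis matrix listed 6794880 barcodes, and those with at least 2921 gene UMIs (10% of the 99th percentile of the 10000 largest) were kept, giving 23931 cells beside 12753 after 5-FU. Its rows take their symbols from the stress library, whose gene order correlated with it at 0.926, and at 0.395 at most when shifted. Seurat 5.3.0 HTODemux (quantile 0.99) called hashtag singlets. Barcodes with both tags were left out, and doublets within a genotype remain. Gene UMIs per pool ranged from 36917944 to 98085544. Members, gene lists and tests were chosen with earlier results of these data known.

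UMIs were summed per genotype, library and Slc16a11 class and tested with edgeR 4.0.16 (TMM, quasi-likelihood, library as a term, Benjamini-Hochberg adjustment, threshold 0.05) on genes with 30 UMIs over the 4 pools and 10 per library. Slc16a11 was left out of the counts of calls. With library as a term, the p-values measure how far a difference repeats between the libraries, with dispersion shared over genes. Pools hold 2 mice each, and the spread between mice was not measured. Per-library log2 ratios add 0.5 UMIs to each sum. Named genes were, for positive against negative cells, Clec10a, Cd48, Ccl9 and the called genes with 50 UMIs per library and the same sign in both, 15 with the largest and 10 with the smallest log2 difference. For genotypes within positive cells they were Sin3b and 8 each way with 10 UMIs per library, of which 7 lower genes remained besides Sin3b. Neighbour order came from GENCODE M21 on GRCm38. With that build differing from mm9, no coordinates are given. On simulated counts the fits recovered 75%, 81% and 48% of genes changed 2-fold and 100%, 100% and 98% of those changed 4-fold for positive against negative cells, genotypes in all cells and genotypes in positive cells. They made 7, 9 and 4 false calls. The simulation gave all genes the same fixed dispersion and raised the changed genes alike in both libraries, so these rates need not hold for the real pools. Single values of some listed genes are not reported here.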

Additional observations from a re-analysis of the deposited data

Results flagged for a closer look

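Slc16a11 was also counted in barcodes that entered no comparison. Of the barcodes with both tags, 15.3% at homeostasis and 13.8% after 5-FU held an Slc16a11 UMI, and of those with no tag 3.20% and 0.851% did, above the limit that a count of 0 allows. Median UMIs were 11433 and 22596 with both tags and 5918 and 4162.5 with no tag.

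Within the knockout, 6 named genes differed between positive and negative cells in opposite directions in the libraries, with counting intervals that leave out 0 on both sides. No share over all genes is given for this pattern, so the count is not a result about these genes. The intervals cover counting error alone, on 102 and 61 positive cells. Those of Nupr1 at homeostasis (0.02 to 0.88) and Cenpf after 5-FU (-0.60 to -0.05) came near 0. The differences between the libraries were not tested. The log2 ratios at homeostasis and after 5-FU were 0.97 and -2.67 for Pf4, 0.96 and -1.34 for Cavin2, 0.78 and -0.93 for Vwf, 0.48 and -0.73 for Nupr1, 0.57 and -0.31 for Cenpf, and -0.71 and 0.50 for Vldlr. Without the cell that held most UMIs of the gene, a step chosen after seeing the data, Pf4 was at -0.29 at homeostasis and -3.47 after 5-FU, so its opposite direction was lost. The other 5 kept opposite signs without their highest cell, at 0.67 and -1.58 for Cavin2, 0.43 and -1.38 for Vwf, 0.27 and -1.11 for Nupr1, 0.30 and -0.57 for Cenpf, and -0.86 and 0.28 for Vldlr.

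Acadvl, a neighbour of Slc16a11, had log2 ratios of knockout over wild type of -0.18 at homeostasis and 0.10 after 5-FU in all cells, and the difference was not tested.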

How the results depend on the processing

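The positive share moved beyond its interval with the detection rule. Requiring 2 or more UMIs gave 6.01% and 0.0864% in wild type and knockout at homeostasis and 5.15% and 0.215% after 5-FU, and thinning to 4000 UMIs gave 11.2%, 1.15%, 6.17% and 0.551%. With the own tag at 80% or more of hashtag UMIs the homeostasis shares were 20.9% and 2.67%, on 20 positive knockout cells, and Sin3b in the wild type was 85.0 and 84.6 CPM in positive and negative cells. The log2 ratio of Slc16a11 between genotypes stayed within its interval in all alternatives run. The counts of genes higher and lower in positive cells, 42 and 172, became 186 and 261 with 2 or more UMIs, 22 and 69 with DESeq2, 195 and 442 without the low-count filter, 18 and 62 with negatives matched on UMIs, 140 and 294 with the top and bottom 2% of cells removed and 255 and 342 without the lineage cells, an alternative chosen after seeing the data. With the 80% tag rule the genes higher were 23. For genotypes in all cells, 50 and 47 became 129 and 117 with DESeq2, 86 and 85 with library size alone, 164 and 184 without the filter and 87 and 78 with the 80% tag rule. For genotypes in positive cells, 24 and 16 became 5 and 1 with wild-type cells drawn down, 6 and 1 with DESeq2 and 60 and 26 with the 2% tails removed. There the genes higher were 44 without the lineage cells, and the genes lower were 25 without the filter and 9 with the 80% tag rule. Of the 40 genes called there, 6 were called in the drawn-down fit, and of the 214 in positive against negative cells 71 were called with matched negatives.

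The share of cells with a high score was 100.0% in both genotypes at homeostasis with 25 genes, since the median score was then 0, and 44.3% and 52.1% after 5-FU. With genes from the same library it was 40.3% and 29.5% at homeostasis and 25.8% and 21.2% after 5-FU, and with the 80% tag rule 46.3% and 39.5%, and 50.9% in the knockout after 5-FU. Ccl9 in positive against negative cells turned to -0.03 with matched negatives and ran from -0.06 to 0.17 without the homeostasis and without the 5-FU library, and Vpreb3 to 0.46 without the lineage cells. Of 339 values of named genes recomputed with a test, 269 kept their direction and side of the threshold, 66 kept the direction but lost the call, 2 gained it and 2 turned. Leaving out a library leaves no residual degree of freedom, so those 94 values have no test, and 93 kept their direction. No paired analysis was possible because the labels' replicate numbers name library types and pair no mice. The pairing the data do hold, the shared library, was a term in each of the edgeR and DESeq2 fits. Where no cause is named above, the cause was not tested. Pools of 102 and 61 knockout cells limit the genotype comparison of positive cells.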
